A study of Mus musculus with 9 samples.

Results

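The pre-TCR alpha chain and the invariant chains of the T cell receptor complex were followed through thymocyte maturation as 5 genes chosen by name: Ptcra, Cd3d, Cd3e, Cd3g and Cd247, of 20258 genes that could be named on the array. Each was read by 1 probe, and each was well above background on all 9 arrays. The thymocytes came from C57BL/6 mice and were sorted by flow cytometry on CD4, CD8 and TCRβ, with 1 array for each group. The CKO groups were Brd1flox/flox with Tie2-Cre, and the control groups were Brd1+/+ with Tie2-Cre, so that every mouse carried the Cre. The Tie2 promoter is active in endothelial and blood-forming cells, and the protein made from Brd1 carries a bromodomain and belongs to histone acetyltransferase complexes. Cells positive for CD4 and CD8 (double positive, DP), CD4 single positive (CD4SP) cells and CD8 single positive (CD8SP) cells were taken from both genotypes at 8 weeks. CD8SP cells were also taken at 14 weeks from CKO and control mice that carried in addition OT-I (written OT-l in the labels), a transgene for a rearranged receptor that sees MHC class I, and CD4SP cells without surface TCRβ were taken at 8 weeks from the CKO alone. Whether animals were pooled is not given in the sources used here. A level is the log2 of a probe's signal over the 75th percentile of all probes of its array, and differences are between such levels. Levels were not set against each other between genes, since probes differ in brightness. Counts and shares over all genes include transcripts and regions without a gene name: of 20282 tested, 12285 were named.

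Before a thymocyte has an alpha chain, its rearranged beta chain pairs with the invariant pre-TCR alpha chain encoded by Ptcra, and the pair signals through the CD3 chains to let the cell multiply and pass to the DP stage. At the DP stage the alpha chain is rearranged and takes the place of the pre-TCR alpha chain. The chains encoded by Cd3d, Cd3e and Cd3g form heterodimers of epsilon with delta and of epsilon with gamma, and Cd247 encodes the zeta chain, which joins last and carries most of the tyrosine motifs that Lck phosphorylates and Zap70 binds. Without the CD3 and zeta chains a receptor is kept from the cell surface. Ptcra is known as a target of E proteins and of Notch signalling, and is used as a mark of immature thymocytes.

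The promoters of Ptcra, whose level varied most over the arrays, of Cd3e and Cd3g, whose levels ran closest together, and of Cd247, which ran apart from them, are shown as the 250 bases before the gene's start in RefSeq (GRCm38.p6). The windows are chr17:46763713-46763962 on the minus strand for Ptcra, chr9:45009612-45009861 on the minus strand for Cd3e, chr9:44980432-44980681 on the minus strand for Cd3g and chr1:165788431-165788680 on the plus strand for Cd247. Capitals mark the palindrome CAGCTG wherever it stands, and likewise the hexamer CAGGTG, which reads CACCTG where it lies on the opposite strand. Both are forms of the E-box (CANNTG), the element that E proteins bind.
Ptcra: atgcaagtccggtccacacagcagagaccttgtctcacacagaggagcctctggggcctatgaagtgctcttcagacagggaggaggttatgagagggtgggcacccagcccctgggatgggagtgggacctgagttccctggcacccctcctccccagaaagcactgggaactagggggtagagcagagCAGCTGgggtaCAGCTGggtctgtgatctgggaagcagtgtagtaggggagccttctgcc
Cd3e: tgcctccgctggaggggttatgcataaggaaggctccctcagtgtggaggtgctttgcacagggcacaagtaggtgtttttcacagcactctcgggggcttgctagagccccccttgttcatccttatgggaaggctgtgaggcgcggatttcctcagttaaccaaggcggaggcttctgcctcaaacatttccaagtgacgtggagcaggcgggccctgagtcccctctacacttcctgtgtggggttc
Cd3g: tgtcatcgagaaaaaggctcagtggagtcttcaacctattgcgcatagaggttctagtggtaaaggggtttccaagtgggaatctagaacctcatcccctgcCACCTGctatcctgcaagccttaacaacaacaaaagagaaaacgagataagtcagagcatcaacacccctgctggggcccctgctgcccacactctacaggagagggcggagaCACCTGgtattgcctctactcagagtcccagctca
Cd247: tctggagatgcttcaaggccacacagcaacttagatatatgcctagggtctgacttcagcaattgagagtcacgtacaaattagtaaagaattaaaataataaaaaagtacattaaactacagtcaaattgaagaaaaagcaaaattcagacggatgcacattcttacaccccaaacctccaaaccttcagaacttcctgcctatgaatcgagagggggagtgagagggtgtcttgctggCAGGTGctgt
All 5 genes had a window in the RefSeq table. The Ptcra window held CAGCTG 2 times, 60 and 49 bases before the start, and none of the other 4 windows held it. Of 32851 such windows of all genes, 13.0% held at least 1 CAGCTG and 1.26% held at least 2. The hexamer CAGGTG, on either strand, was present 2 times before Cd3g and once each before Cd3d and Cd247, and was in 17.2% of all windows. Any E-box was in 66.2% of all windows and in all 5 of these, with 1 before Cd3d and before Cd3e, 2 before Ptcra and before Cd247 and 3 before Cd3g. TGGGAA, a core bound by Ikaros, was found on either strand 2 times before Ptcra and once before Cd3e and Cd3g, and 21.6% of all windows held it. Cd3g and Cd3d lie head to head, with 1354 bases between their starts. These are matches of letters, and binding was not measured.

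The arrays had 39.0% to 45.9% of probes well above background and no saturated spot. Brd1 itself, read by 1 probe, was at -0.33, -0.98, -0.73 and -0.73 on the DP, CD4SP, CD8SP and OT-I CKO arrays, against -0.79, -1.09, -1.37 and -1.34 on the matching control arrays. It was lower in CKO cells in none of the pairs. The floxed part of Brd1 and the probe's place relative to it are not given in the sources used here, so this probe checks nothing about the labels, and CKO and control are used below as the labels give them. Co-receptor levels were read as a check of the gates. Cd4 ran from 6.19 to 6.54 where CD4 was sorted for (5 arrays) and from 3.14 to 3.50 in CD8SP cells (4 arrays). Cd8a ran from 4.60 to 5.46 on the 6 DP and CD8SP arrays and was -2.11 in CD4SP CKO and -1.22 in CD4SP control cells, while the TCRβ-negative array stood between at -0.32. Cd8b1 likewise ran from 5.37 to 6.65 on those 6 arrays, against 0.54 in CD4SP CKO, 1.67 in CD4SP control and 3.24 in TCRβ-negative cells. All 8 T lineage markers were well above background on all 9 arrays. Markers of other cells were summed on each array in multiples of the 75th percentile: 9 myeloid markers ran from 44.4 on the TCRβ-negative array to 152 on the CD8SP CKO array, 5 erythroid markers from 22.5 to 83.2, and 6 B cell markers, of which Pax5 was above background on none, from 3.13 to 14.7. The probes of the receptor's own alpha and beta chains carry no gene name here and were not analysed. In sorted cells measured in bulk, fewer cells of a type and less RNA per cell cannot be told apart.

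Ptcra was high in DP cells of both genotypes, low in CD4SP cells, and split the CD8SP cells by genotype. Its log2 level was 3.94 in DP CKO cells, against 3.84 in DP control cells. In CD4SP cells it was -0.74 in the CKO, against 0.33 in the control. The CD8SP arrays gave 2.11 in CKO cells and 4.36 in control cells, and the OT-I CD8SP arrays gave -1.85 in CKO cells and 3.26 in control cells. The TCRβ-negative CD4SP cells of the CKO had 4.25. In order from high to low, the CD8SP control array stood first, followed by the TCRβ-negative CKO, DP CKO, DP control, OT-I control, CD8SP CKO, CD4SP control, CD4SP CKO and OT-I CKO arrays. The first 4 lay within a narrow band, and with 1 array per group no neighbours in this order can be set against a replicate error. The span of 6.20 on the log2 scale, 73.8-fold, was wider than that of 99.6% of the 15071 genes well above background on all arrays, whose median span was 1.18.

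**Figure D1:**
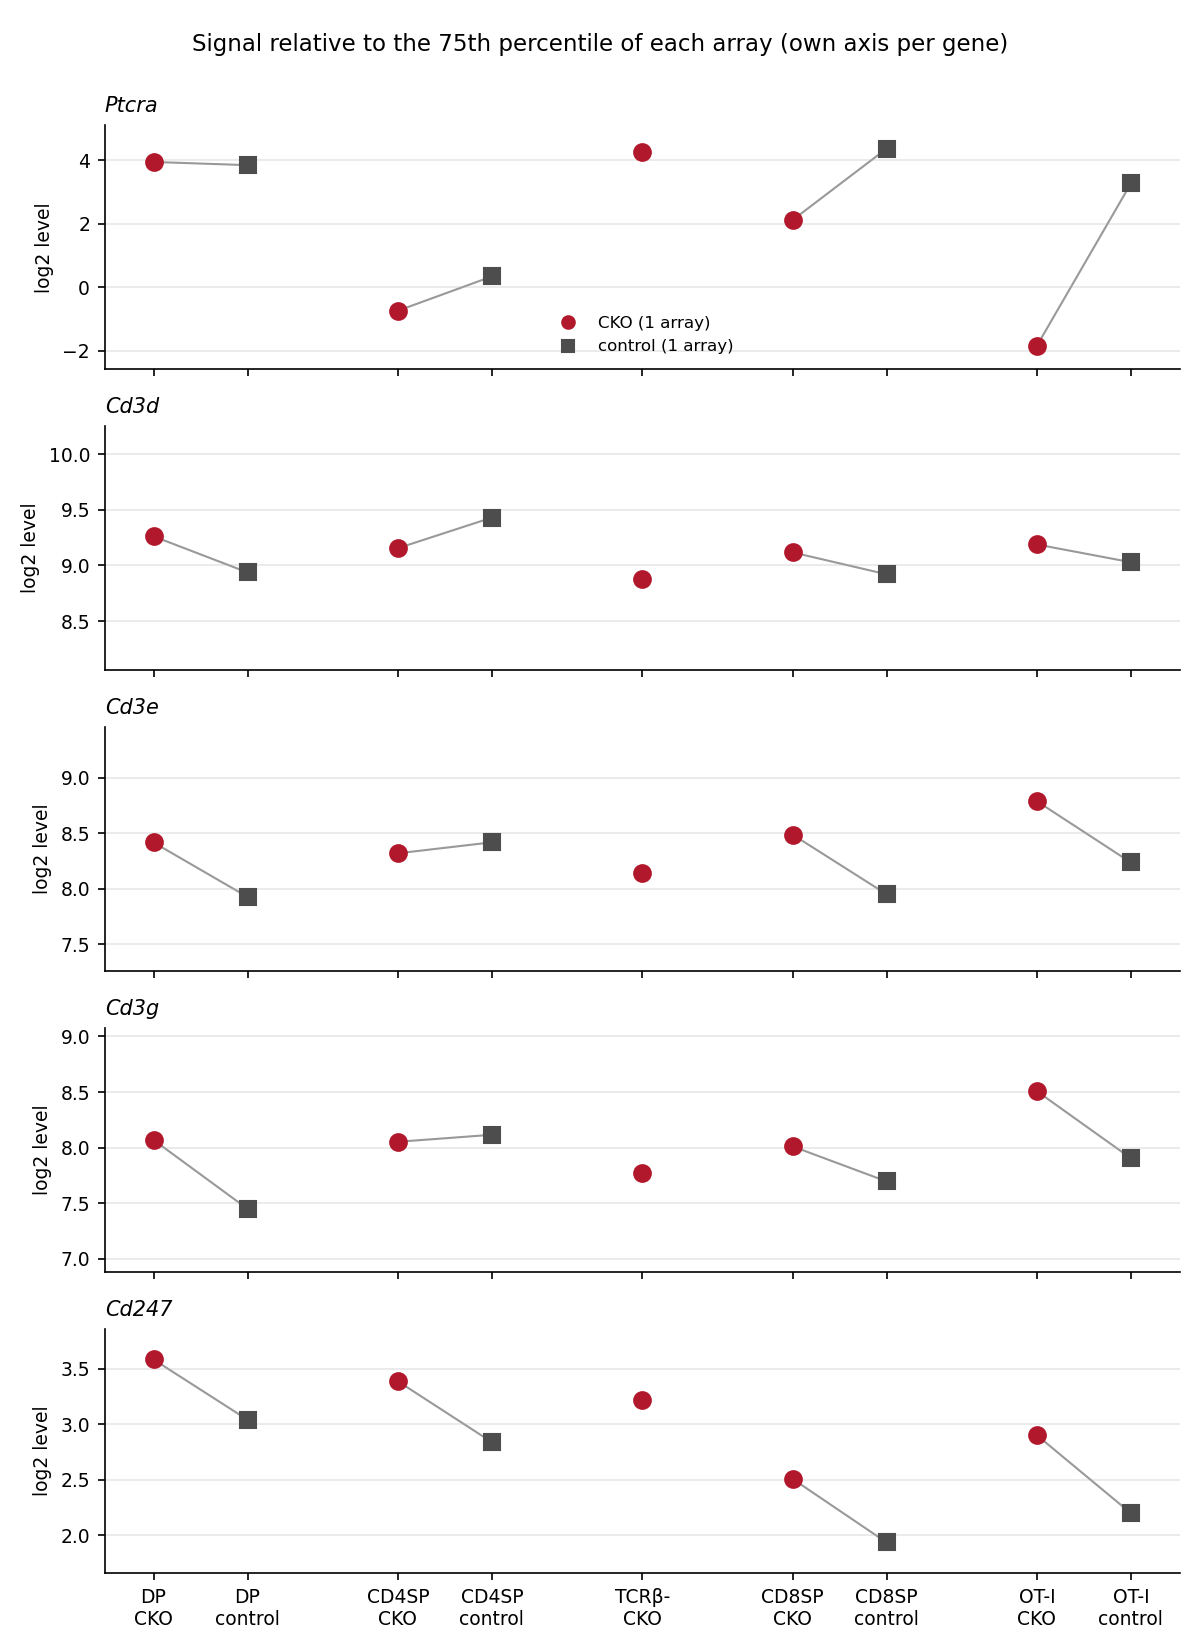
Log2 level of each gene on each of the 9 arrays (y axis, log2 of signal over the array's 75th percentile, an own range for each gene), with CKO arrays as red circles, control arrays as grey squares and lines joining the arrays of a pair. Ptcra spans 6.20 log2 units, whereas Cd3d, Cd3e and Cd3g span 0.55, 0.86 and 1.06 and Cd247 spans 1.65.

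The genotype difference in Ptcra, CKO minus control, was 0.10 in DP cells, -1.08 in CD4SP cells, -2.25 in CD8SP cells and -5.11 in OT-I CD8SP cells. The DP difference was smaller than the shift of the median gene of that pair (0.15), and its sign turned to -0.12 with the 75th percentile taken over the probes detected on all arrays. In linear terms the signal was 2.11-fold lower in CD4SP CKO cells, 4.75-fold lower in CD8SP CKO cells and 34.5-fold lower in OT-I CKO cells. In the OT-I pair 0.0269% of the genes compared had a lower difference. Past 2-fold lower were 5.32%, 9.28% and 13.9% of the genes compared in the CD4SP, CD8SP and OT-I pairs. With normexp background correction the OT-I difference was -3.46. The CD8SP pair was split between the slides, whereas the arrays of each other pair shared a slide. A block for the slide is therefore fitted from the CD8SP pair alone. On the first slide, which holds the DP and CD4SP pairs, the estimate over both pairs was -0.49 (SE 0.39, limma adjusted p = 1.00).

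Over the 4 pairs the limma estimate for Ptcra was -2.08 (SE 0.81, 95% interval -4.08 to -0.09, n = 4 pairs) with an unadjusted p of 0.0434 and an adjusted p of 0.438, and so was not called. In that fit 0.281% of 20282 genes were called, 8 higher and 49 lower in CKO cells, and 10.9% had an unadjusted p below 0.05. The split was 24 higher and 26 lower with normexp correction and 1 higher and 31 lower with the percentile of detected probes. The levels of the 4 CKO arrays averaged 0.86 ± 2.64 and those of the 4 control arrays 2.95 ± 1.80 (SD over populations), and the ranges overlapped. With slide as a block the estimate was -2.03 (limma adjusted p = 0.952). Without the OT-I pair the estimate was -1.08 (limma adjusted p = 0.651), and without the DP pair it was -2.81 (limma adjusted p = 0.251). The difference between the genotype effects of the CD8SP populations and those of DP and CD4SP cells was itself tested, and was -3.19 (SE 1.04) with an unadjusted p of 0.0292 and a limma adjusted p of 0.316. It was -1.76 without the OT-I pair (limma adjusted p = 0.630) and -4.62 without the CD8SP pair (limma adjusted p = 0.0559). No gene was called in that test (0% of 20282), while 15.1% had an unadjusted p below 0.05.

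Genes used at the DP stage were set beside Ptcra as a list of 16. Their summed signal, in multiples of the 75th percentile, was 2697 in DP CKO cells and 2490 in DP control cells, and 744 in CD8SP CKO cells and 1127 in CD8SP control cells. In OT-I CD8SP cells it was 323 in the CKO and 894 in the control. In the CD8SP and OT-I pairs it therefore stood on the same side as Ptcra. In CD4SP cells it did not: the sum was 419 in CKO cells and 317 in control cells, while Ptcra was lower in the CKO. The sum is weighted towards the brightest probes. In the DP pair the median difference of the 16 genes was 0.09, against 0.15 over all genes compared, and the sign of Ptcra changed with the scaling. Rag1, a subunit of the recombinase that rearranges receptor genes, was 2.88 in CD4SP CKO cells and 0.62 in CD4SP control cells. The median difference of the 16 genes was 0.55 in the CD4SP pair, against -0.04 over all genes compared, with 7 genes past 2-fold higher (background 3.49%) and 1 lower (background 5.32%).

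In the OT-I pair the median of the 16 was -1.04, against -0.08 over all genes, with 8 past 2-fold lower (background 13.9%) and 1 higher (background 8.53%). Rag1 was -1.20 in OT-I CKO cells and 1.94 in OT-I control cells. Dntt, the polymerase that adds bases at receptor junctions, was 5.97 in OT-I CKO cells and 8.97 in OT-I control cells. Tdrd5, a germ-line RNA granule gene, ran the other way at 0.25 in OT-I CKO cells and -1.09 in OT-I control cells. The difference in Ptcra lay below all 16 genes in the CD8SP and OT-I pairs. In the CD8SP pair the median of the 16 was -0.48, against -0.13 over all genes, with 1 gene past 2-fold higher (background 6.77%) and 1 lower (background 9.28%). The part of these genes' source cells in the Ptcra level was not tested.

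Markers of other cells also differed between the genotypes. In the OT-I pair Cd163l1, a scavenger receptor of gamma delta T cells, was 3.01 in CKO cells and 5.06 in control cells, and the 4 gamma delta markers summed to 10.2 in OT-I CKO and 37.0 in OT-I control cells, against at most 3.79 on the other 7 arrays. The erythroid markers summed to 83.2 in OT-I CKO and 47.1 in OT-I control cells. In the CD4SP pair all 4 NK and NKT markers that could be compared were past 2-fold lower in the CKO, and the list of 6 summed to 0.41 in CKO and 7.82 in control cells. The erythroid, granulocyte and myeloid lists summed to 23.9, 4.53 and 74.5 in CD4SP CKO cells, against 58.0, 9.03 and 101 in CD4SP control cells. In the CD8SP pair the myeloid list summed to 152 in CKO and 94.8 in control cells. In the DP pair the erythroid list summed to 73.5 in CKO and 22.5 in control cells, and the granulocyte list to 4.76 in CKO and 15.1 in control cells. The part of these markers in the genotype differences was not tested.

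**Figure D2:**
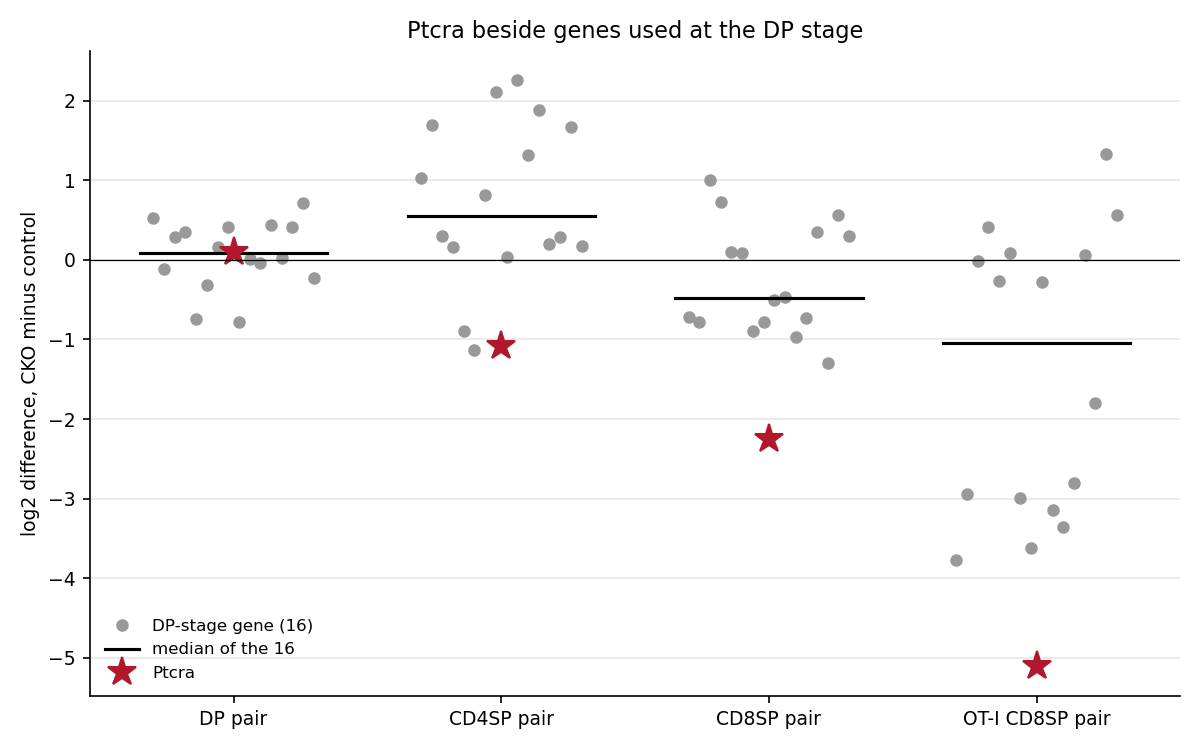
Log2 difference, CKO minus control, in each population pair (x axis) for 16 DP-stage genes (grey points), their median (black line) and Ptcra (red star). Ptcra is near 0 in the DP pair, at -1.08 in the CD4SP pair, where the median of the 16 is 0.55, and below all 16 genes in the CD8SP and OT-I pairs.

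Cd3d, Cd3e and Cd3g, which encode the delta, epsilon and gamma chains, were well above background on every array and varied little. Cd3d ranged from 8.88 on the TCRβ-negative CKO array to 9.43 on the CD4SP control array, a 1.46-fold span, and 5.81% of genes well above background on all arrays had a smaller one. For Cd3e the range was from 7.93 on the DP control array to 8.79 on the OT-I CKO array (1.82-fold). Cd3g ran between the same 2 arrays, from 7.45 to 8.51 (2.08-fold). The order of arrays for Cd3e and Cd3g was alike, with a Pearson r of 0.96 over the 9 arrays, while Cd3d had 0.69 with Cd3e and 0.70 with Cd3g. These correlations share the arrays and their scaling and are given as a description.

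The delta chain's Cd3d was 9.26, 9.16, 9.12 and 9.19 in DP, CD4SP, CD8SP and OT-I CKO cells, against 8.94, 9.43, 8.92 and 9.03 in the matching control cells. For the epsilon chain's Cd3e the levels were 8.42, 8.32, 8.49 and 8.79 in CKO cells, in the same order of populations, against 7.93, 8.42, 7.95 and 8.23 in control cells. Cd3g, for the gamma chain, had 8.07, 8.05, 8.01 and 8.51 in CKO cells, against 7.45, 8.11, 7.70 and 7.90 in control cells. Each was thus higher in CKO cells in the DP, CD8SP and OT-I pairs and lower in the CD4SP pair, and 33.3% of all genes tested were higher in CKO cells in at least 3 of the 4 pairs. In the CD4SP pair the sign of Cd3e and Cd3g turned with normexp correction (0.17 and 0.18) and with quantile normalization (0.06 and 0.07), while the other 3 pairs kept theirs. None of these differences reached 2-fold, the widest being 0.62 for Cd3g in DP cells, a pair in which 3.94% of genes were past 2-fold higher.

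The limma genotype estimate was 0.10 (SE 0.20, adjusted p = 0.847) for Cd3d, 0.37 (SE 0.21, adjusted p = 0.547) for Cd3e and 0.37 (SE 0.21, adjusted p = 0.550) for Cd3g. The 95% intervals ran from -0.38 to 0.58 for Cd3d, from -0.14 to 0.88 for Cd3e and from -0.14 to 0.88 for Cd3g. Taken relative to the mean change of these 3 genes, Ptcra differed by -0.38 in DP, -0.93 in CD4SP, -2.60 in CD8SP and -5.55 in OT-I CD8SP cells of the CKO. A single factor per array cannot move these values, whereas quantile normalization and background correction can. The message of the pre-TCR alpha chain and those of the CD3 chains thus differed unequally between the genotypes, although the size in the OT-I pair moved with the background correction, Ptcra itself differing there by -3.46 with normexp in place of -5.11.

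Cd247, the zeta chain, was higher in CKO cells in all 4 pairs. It was 3.58, 3.39, 2.51 and 2.90 in DP, CD4SP, CD8SP and OT-I CKO cells, against 3.04, 2.84, 1.94 and 2.20 in the matching control cells. The differences of 0.54, 0.55, 0.57 and 0.70 lay closer together than those of the other 4 genes, although the ranges of the CKO arrays and the control arrays overlapped. Of all genes tested, 10.6% were higher in CKO cells in all 4 pairs. The limma estimate of 0.59 (SE 0.18, 95% interval 0.16 to 1.02, n = 4 pairs) had an unadjusted p of 0.0153 and an adjusted p of 0.335, and was not called. Fitted to the arrays of the first slide the estimate was 0.55 (limma adjusted p = 0.942), and a block for the slide gave 0.60 (limma adjusted p = 0.903). The sign held in every pair under the scalings tried, where the DP difference came down to 0.32 and the OT-I difference went up to 0.98 with the percentile of detected probes.

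**Figure D3:**
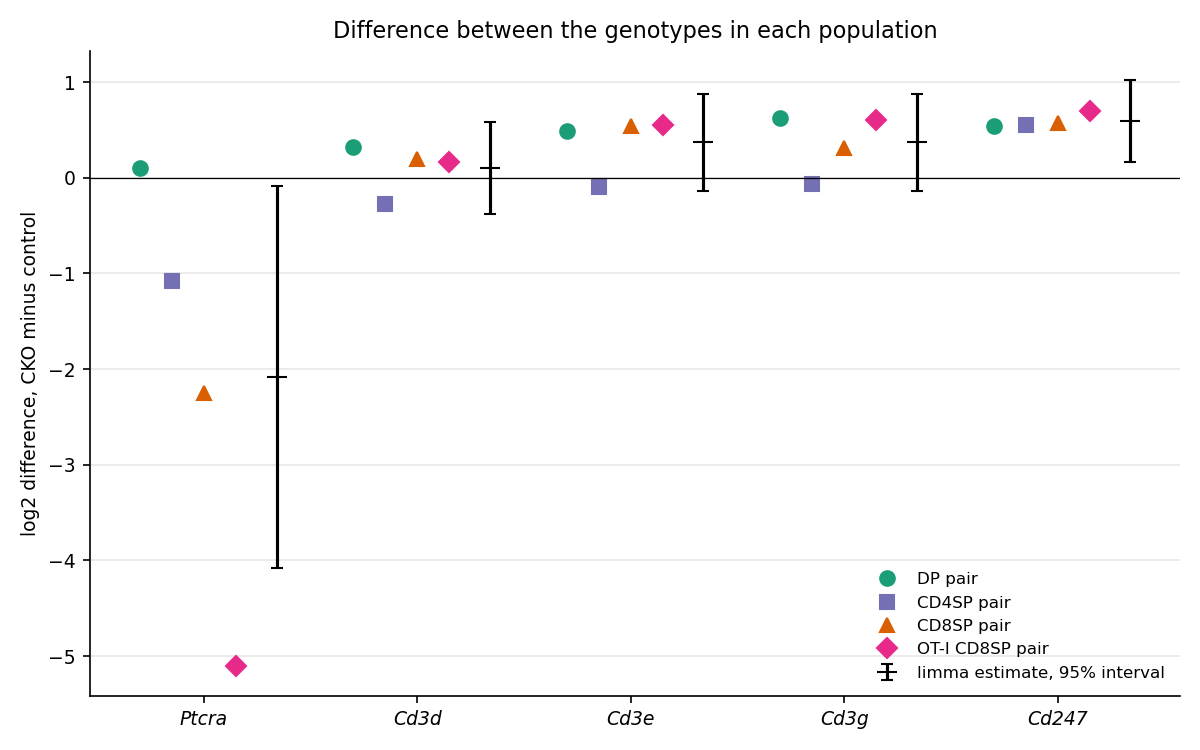
Log2 difference, CKO minus control, of each gene in each of the 4 population pairs (coloured symbols, 1 array per group) with the limma estimate over the pairs and its 95% interval (black). Ptcra runs from 0.10 to -5.11, Cd247 sits between 0.54 and 0.70, and Cd3d, Cd3e and Cd3g are below 0 in the CD4SP pair alone, where Cd3e and Cd3g turn above 0 with normexp correction or quantile normalization.

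Along maturation Cd247 was lowest in CD8SP cells. From the DP to the CD8SP arrays it differed by -1.07 in the CKO (2.51 against 3.58) and by -1.10 in the control (1.94 against 3.04), and the limma estimate was -1.09 (SE 0.25, adjusted p = 0.0822). That fit called 3.46% of genes, and Cd247 was called with normexp correction (limma adjusted p = 0.0179) and among genes well above background on all arrays (limma adjusted p = 0.0471). In the other alternatives its limma adjusted p ran from 0.0662 with quantile normalization to 0.365 with slide as a block. From DP to CD4SP cells Cd247 differed by -0.20 in each genotype (limma adjusted p = 0.782). Relative to the mean change of Cd3d, Cd3e and Cd3g, Cd247 differed between CD8SP and DP cells by -1.03 in the CKO and -1.19 in the control. In the main fit the CD3 genes showed no common direction: CD8SP minus DP estimates were -0.08 for Cd3d, 0.05 for Cd3e and 0.09 for Cd3g (limma adjusted p = 0.900, 0.948 and 0.888). All 3 were negative with normexp correction, quantile normalization and the percentile of detected probes. With quantile normalization Cd3d, Cd3e and Cd3g had -0.87, -0.62 and -0.48, beside -1.19 for Cd247. The gap between Cd247 and these genes was thus smaller with that normalization.

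Ptcra was lower in CD4SP than in DP cells of both genotypes. The difference was -4.68 in the CKO and -3.50 in the control, and the limma estimate of -4.09 (SE 1.15) had an adjusted p of 0.145 in a fit that called 3.09% of genes. Without the OT-I pair the same estimate had a limma adjusted p of 0.0203, and on the 6 arrays of the first slide alone it had 0.00222. In the other alternatives it was not called, with limma adjusted p from 0.0572 with normexp correction to 0.208 with slide as a block. The first-slide fit has 1 residual degree of freedom, from the DP and CD4SP pairs alone, so its small p-value rests largely on the prior. From DP to CD8SP cells Ptcra differed by -1.83 in the CKO and by 0.52 in the control, and the estimate of -0.65 (SE 1.15, limma adjusted p = 0.793) averages over these opposite signs. Between OT-I and other CD8SP cells, which differ in receptor, age and, for the control, slide, it was -3.96 in the CKO and -1.10 in the control.

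In TCRβ-negative CD4SP cells of the CKO the messages of the CD3 and zeta chains were within 1.30-fold of those in the other CKO populations at 8 weeks that carry CD4, and that of Ptcra was near its DP level. Levels on this array were 8.88 for Cd3d, 8.14 for Cd3e, 7.77 for Cd3g and 3.22 for Cd247. Against the CD4SP array of the CKO the differences were -0.27, -0.18, -0.28 and -0.17, and against its DP array -0.38, -0.27, -0.30 and -0.37. All 8 were negative and stayed so under the scalings tried. The limma estimates against CD4SP, which assume the genotype effect fitted in the 4 pairs, ran from -0.50 for Cd3g to -0.19 for Cd247, and the 95% interval of Cd3g ran from -1.42 to 0.42. A 2-fold lower level of Cd3g is inside that interval.

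Ptcra was 4.25 in TCRβ-negative CD4SP cells, against -0.74 in CD4SP cells and 3.94 in DP cells of the CKO. The difference from CD4SP cells of 4.99, or 31.9-fold, stood at the 99.97th percentile of the genes compared, of which 9.89% were past 2-fold higher. That from DP cells was 0.31, and 1.48% of genes were past 2-fold higher there. The limma estimate against CD4SP was 5.50 (SE 1.47) with an adjusted p of 0.158, where 1.4% of genes were called. It had a limma adjusted p of 0.0357 without the OT-I pair and of 0.00723 on the first slide alone, and was not called in the other alternatives, with limma adjusted p from 0.0668 with normexp correction to 0.249 with slide as a block. The first-slide fit has 1 residual degree of freedom, from the DP and CD4SP pairs alone. Every fit matches the TCRβ-negative array exactly, since it is the only array of its population. Each takes the genotype effect fitted in the pairs as that of these cells. In the main fit that effect was -2.08, averaged over pair differences from 0.10 to -5.11. The main estimates against CD4SP and DP therefore lie above the direct differences of 4.99 and 0.31. Against DP the estimate of 1.40 (SE 1.47) had a limma adjusted p of 1.00, no gene was called (0%), and 1.64% had an unadjusted p below 0.05.

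The DP-stage genes stood with Ptcra on this array. Of the 16, 12 were more than 2-fold higher than in CD4SP CKO cells (background 9.89%) and none lower, with a median difference of 3.21 against 0.03 over all genes. In the fit 1 of them, Tdrd5, was called higher (4.28, SE 0.46, limma adjusted p = 0.0283), where 1.4% of all genes were called. Rag1 was 8.07 on the TCRβ-negative array, against 2.88 in CD4SP and 8.09 in DP cells of the CKO. Dntt was 10.48, against 6.71 in CD4SP and 10.46 in DP cells of the CKO. Against DP cells the median of the 16 was -0.04, and 2 were past 2-fold lower (background 1.93%): Cd8a was -0.32 in TCRβ-negative and 4.71 in DP CKO cells, and Cd8b1 was 3.24 in TCRβ-negative and 6.33 in DP CKO cells. Both genes encode the co-receptor that the gate excludes, and both were past 2-fold higher than in CD4SP CKO cells, by 1.79 and 2.71 on the log2 scale. Among markers of other cells the B cell gene Cd79b was called higher in TCRβ-negative than in CD4SP cells (2.69) and the myeloid genes Lyz2 and Itgax, not well above background on the TCRβ-negative array, were called lower. Set against the lowest signal well above background there, Lyz2 differed by -2.34 or more and Itgax by -2.60 or more between the 2 CKO arrays. With normexp correction the fitted estimates of Lyz2 and Itgax were -0.93 and -1.26, in place of -3.17 and -3.74. The part of these markers in these results was not tested.

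**Figure D4:**
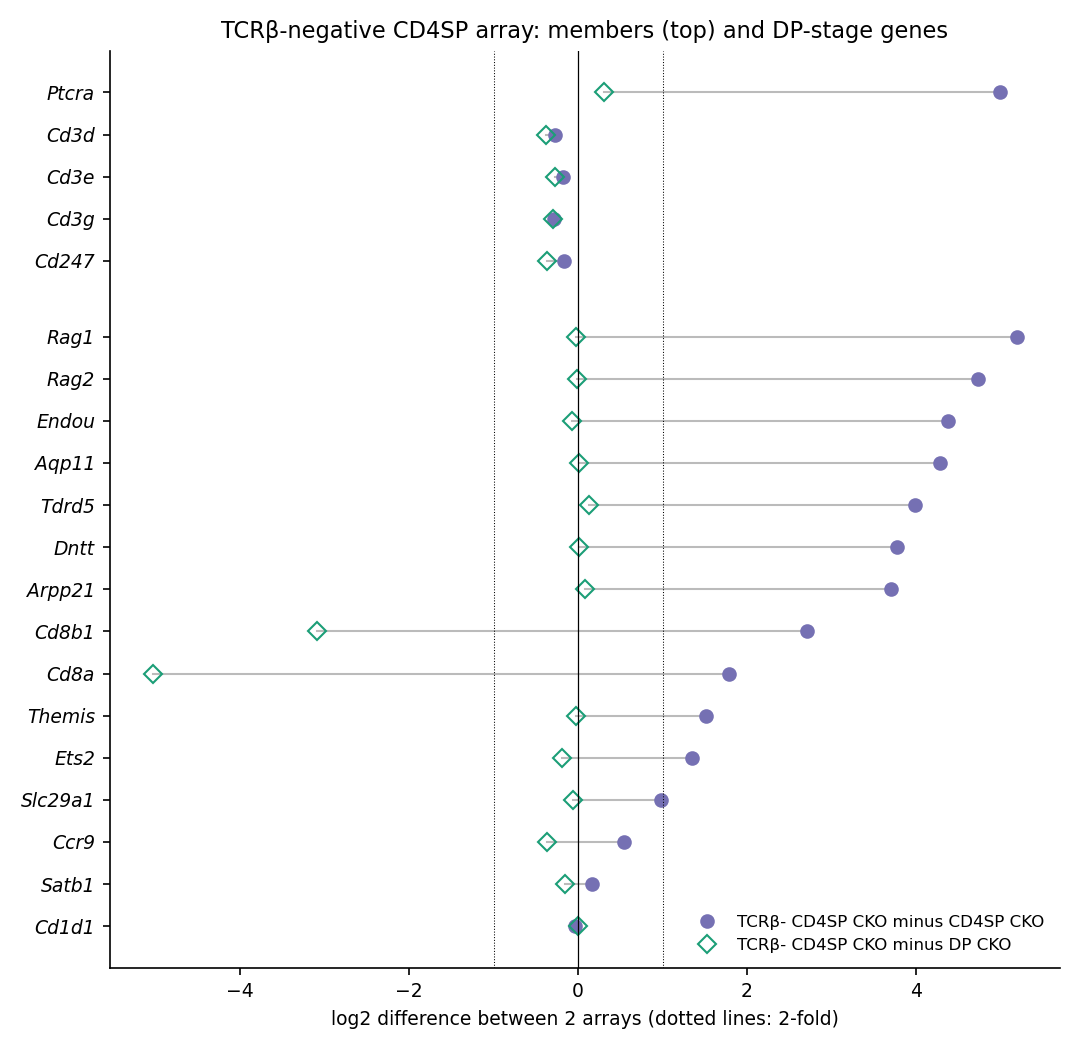
Log2 difference of the TCRβ-negative CD4SP array from the CD4SP array (filled circles) and from the DP array (open diamonds) of the CKO, for the 5 receptor genes (top) and 15 of the 16 DP-stage genes, with dotted lines at 2-fold. Ptcra stands at 4.99 and 0.31, the 4 CD3 and zeta genes lie between -0.17 and -0.38, and Cd8a and Cd8b1 alone are past 2-fold below DP cells.

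Of 19 genes for partners of the receptor and its turnover, 2 were called lower in TCRβ-negative than in CD4SP cells, where 1.4% of all genes were called. Cd2, an adhesion receptor of T cells, was 5.60 in TCRβ-negative CKO cells and 8.83 in CD4SP CKO cells, with a limma estimate of -3.34 (SE 0.38, adjusted p = 0.0298). Ubash3b, a phosphatase that dampens receptor signalling, was -0.64 in TCRβ-negative CKO cells and 2.34 in CD4SP CKO cells (limma estimate -3.23, SE 0.39, adjusted p = 0.0323). Cd5, a brake on receptor signals, was not called, at 6.15 in TCRβ-negative CKO cells and 8.14 in CD4SP CKO cells. The median of the 19 was -0.65 in the fit, against 0.00 over all genes. None of the 18 proximal signalling genes tested was called. Lck, the kinase that phosphorylates the CD3 and zeta chains, was 10.05 in TCRβ-negative, 9.41 in CD4SP and 10.36 in DP cells of the CKO, and Zap70, which binds them, was 7.25, 7.60 and 7.62 in the same 3. Against DP cells no gene of these lists was called or past 2-fold.

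Of the 19 genes tested among regulators of Ptcra and of beta selection, Id2, an inhibitor of E proteins, was called lower in TCRβ-negative than in CD4SP cells (-4.37, SE 0.60, limma adjusted p = 0.0373; 1.4% of all genes called). Its level was 0.55 in TCRβ-negative CKO cells, 4.40 in CD4SP CKO cells and 1.68 in DP CKO cells, and it was the 1 gene of this list past 2-fold between TCRβ-negative and DP cells. Tcf12, an E protein, was not called, at 4.13 in TCRβ-negative, 2.46 in CD4SP and 3.82 in DP cells of the CKO. Notch3, a receptor of beta selection, was 2.75 in TCRβ-negative, -0.99 in CD4SP and 2.63 in DP cells of the CKO, also without a call. Between the TCRβ-negative and CD4SP arrays of the CKO, 5 genes of this list were past 2-fold higher (background 9.89%) and 4 lower. The share of all genes past 2-fold lower is not given here. Dtx1, a Notch target, was among those lower, so the list had no common direction. No gene was called in TCRβ-negative minus CD4SP with slide as a block, with quantile normalization, without the DP pair or without the CD8SP pair, where 2681, 3658, 3879 and 2681 of 20282 genes had an unadjusted limma p below 0.05. The first and last of these amount to the same fit, since only the CD8SP pair is split between the slides. For Cd2, Ubash3b, Id2 and Tdrd5 the limma adjusted p then ran from 0.0614 to 0.0834 with slide as a block or without the CD8SP pair, from 0.0518 to 0.0628 with quantile normalization and from 0.0792 to 0.103 without the DP pair, with the same signs.

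Between CD4SP and DP cells, with 3.09% of all genes called, 3 of the 19 partner genes were called. Cd2 (2.52, SE 0.30, limma adjusted p = 0.0203) and Ubash3b (3.53, SE 0.30, limma adjusted p = 0.0125) rose in CD4SP cells, and Cbl, a ubiquitin ligase that takes receptors down, fell by 1.74 on the log2 scale (limma adjusted p = 0.0365). The kinase gene Fyn rose by 1.94 (limma adjusted p = 0.0373) and Themis, needed for positive selection, fell by 1.74 on the log2 scale (limma adjusted p = 0.0414), 2 of 18 signalling genes tested. Among the 19 regulators Id2 (3.34) and Dtx1 (2.39), a ubiquitin ligase and Notch target, rose and Notch3 (-3.17) fell (limma adjusted p = 0.0263, 0.0437 and 0.0493). In the DP-stage list 6 of 16 fell and none rose, Cd8a the most at -6.75 (SE 0.34, limma adjusted p = 0.00982). Cd8a and Cd8b1, among the 6, encode the co-receptor that the CD4SP gate excludes, so their fall reads the gate. The rest were Rag1, Tdrd5, Themis and Ets2. With slide as a block Cd2, Ubash3b, Cd8a, Cd8b1 and Tdrd5 kept their calls, and the others named here did not, at limma adjusted p from 0.0561 for Id2 to 0.0977 for Themis.

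Between CD8SP and DP cells, with 3.46% of all genes called, Ubash3b rose (2.74) and Trat1 (-1.51), Cbl (-1.64) and Pag1 (-2.24, well above background on 3 of the 9 arrays) fell among the partners. Trat1 encodes an adaptor that binds the zeta chain, and Pag1 an adaptor that recruits the kinase Csk. Of the regulators, Dtx1 (2.74) and Id2 (2.87) rose and Bcl11b (-1.74), a factor that fixes the T cell fate, fell. No proximal signalling gene was called. Tdrd5, Satb1, Ets2 and Ccr9 fell in the DP-stage list. Among the myeloid markers Itgax (4.69, limma adjusted p = 0.00949) and Mpeg1 (4.92, limma adjusted p = 0.0278) were called higher in CD8SP cells and C1qa was called lower. Their part in these results was not tested. With normexp correction Pag1 (-0.25, limma adjusted p = 0.507) and C1qa (-0.62, limma adjusted p = 0.209) were not called. The CD8SP pair is split between the slides, and with slide as a block no gene was called between CD8SP and DP cells, while 2704 had an unadjusted limma p below 0.05. The limma adjusted p of the list genes named here then ran from 0.0762 for Itgax to 0.232 for Cbl, with the same signs.

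No gene of these lists was called for genotype. The only one past 2-fold in the same direction in at least 3 of the 4 pairs was Dtx1, at 2.33, 4.02, 4.59 and 5.76 in DP, CD4SP, CD8SP and OT-I CKO cells, against -0.15, 2.95, 3.08 and 4.69 in the matching control cells. It was higher in CKO cells in all 4 pairs, with a limma estimate of 1.53 that was not called (adjusted p = 0.170). The share of all genes that meet this 2-fold rule was not counted, so its passing cannot be judged against a background. The medians of the lists in the genotype fit were 0.10 for partners, 0.34 for proximal signalling, -0.07 for regulators and -0.36 for DP-stage genes, against -0.04 over all genes. Fyn, the kinase gene, was higher in CKO cells by 0.83, 0.61, 1.38 and 1.40 in the DP, CD4SP, CD8SP and OT-I pairs, and was chosen for mention after its values were seen.

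The genes whose levels ran most like Ptcra over the 9 arrays were H2ax, a histone variant (Pearson r = 0.98), Rnf157 (0.98) and Ift57 (0.98), among 3187 named genes with an SD of at least 0.5. Of the DP-stage list Dntt had the highest r with Ptcra (0.94), followed by Aqp11 (0.93) and Slc29a1, a nucleoside transporter (0.91), while Satb1 had 0.07. Those most like Cd3d were Ppp1r15a (0.84), Rgs2 (0.82) and Tmem154 (0.82). Unc13d and Rassf2 were among the 3 closest to both Cd3e (0.92 and 0.91) and Cd3g (0.94 and 0.93), beside Arrb1 for Cd3e (0.90) and Tesk1 for Cd3g (0.95). Cd247 was followed most closely by Pvr (0.96), Zfyve28 (0.95) and Clk1 (0.95), and had an r of 0.19 to 0.31 with Cd3g, Cd3e and Cd3d. Ptcra had -0.60 with Cd3d, -0.75 with Cd3e and -0.79 with Cd3g. These values rest on 9 arrays of 5 populations that share their scaling, and carry no test.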

How the data were processed

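Per the file headers, the deposited scanner files come from version 10.7.1.1 of Agilent's Feature Extraction. They hold a background-subtracted processed intensity for each spot, not scaled between arrays, beside the raw spot and local background intensity. Per the labels, Cy3 was the dye, although their labelling protocol names biotinylated cRNA. The authors' deposited series table holds that intensity over the 75th percentile of each array. No aligner applies, and the design's build is older than the RefSeq table used for names, so the array's coordinates are not used here.

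Repeated spots were averaged and 144 of 55681 probes were dropped for outlier spots. The log2 signals were taken relative to the array's 75th percentile; the deposited files hold no log2 values. RefSeq named 26715 of 55537 probes. A gene was read by its probe of highest mean. Probes without a gene name were taken by transcript or region, and each of these is counted as a gene. Genes well above background on at least 2 arrays (20282, of which 12285 named) went into a linear model of population plus genotype on the 9 arrays. The fit (limma 3.58.1, R 4.3.3) had 3 residual and 2.91 prior degrees of freedom. Tests were two-sided, and genes were called at a Benjamini-Hochberg adjusted p below 0.05. A second fit added genotype by CD8 lineage. The scripts were tested on simulated data. A single difference between 2 arrays has no test, and no sample was repeated, so the number of arrays limits the precision; p-values measure the spread of differences between populations. Where a probe was below background, its difference used the lowest signal well above background.

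The 5 genes and the lists were chosen with earlier results of these data known. Named were the 5 genes, the list genes called in a contrast and, where none was called, those past 2-fold in at least 3 pairs, the co-receptors, and the 3 genes most correlated with each of the 5. Cd5, Lck, Zap70, Tcf12, Dntt, Aqp11, Slc29a1 and the markers of other cells are named outside this rule, after their values were seen. Alternatives were normexp background correction (offset 50), other scalings, the deposited table, detection filters, the mean of probes, slide as a block, the first slide alone and leaving out each pair. Slide as a block amounts to leaving out the CD8SP pair, except for CD8SP minus DP, and is no separate check. The fit to the first slide has 1 residual and 5.74 prior degrees of freedom. The receptor alpha and beta chains are not analysed here, and some list genes are counted but not reported by name.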

Additional observations from a re-analysis of the deposited data

Results flagged for a closer look

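The sign of the genotype difference, CKO minus control on the log2 scale, was not the same in all populations for 4 of the 5 genes. For Ptcra it was 0.10 in DP cells, with -1.08 in CD4SP, -2.25 in CD8SP and -5.11 in OT-I CD8SP cells. Cd3d was at -0.28 in the CD4SP pair and at 0.32, 0.20 and 0.16 in the DP, CD8SP and OT-I pairs. Cd3e had -0.10 in the CD4SP pair, with 0.49, 0.54 and 0.55 in the DP, CD8SP and OT-I pairs. Cd3g had -0.063 in the CD4SP pair, with 0.62, 0.31 and 0.60 in the DP, CD8SP and OT-I pairs. These differences between single pairs were not tested, since each group has 1 array.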

How the results depend on the processing

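The labels give no replicate numbers to use as a block, so animals could not be paired. The population term of the fit pairs CKO and control within a population, and the genotype estimate rests on these pairs. Of 355 fitted values of the 5 genes under the alternatives, 336 kept their sign and their side of the threshold, 13 changed sign and 6 passed the threshold; where no cause is given, the cause was not tested. Quantile normalization gave CD4SP minus DP estimates of -0.21 for Cd3d and -0.064 for Cd3e, and CD8SP minus DP estimates of -0.62 for Cd3e and -0.48 for Cd3g. CD8SP minus DP for Cd3e was also -0.0029 (normexp), -0.11 (percentile of detected probes), -0.064 (slide as a block) and -0.12 (first slide), for Cd3g -0.0042 (normexp) and -0.060 (percentile of detected probes), and for Ptcra 0.22 (first slide, without the CD8SP CKO array). The genotype by CD8 estimate ran from -0.15 to 0.45 for Cd3d and from -0.16 to 0.52 for Cd3g over the fits that leave out a pair. Ptcra passed the threshold on the first slide in CD4SP minus DP (-4.09) and TCRβ-negative minus CD4SP (4.70), and without the OT-I pair in both, where the leave-one-out range was -4.09 to -4.09 and 4.99 to 5.86. Cd247 passed it in CD8SP minus DP with normexp (-1.09) and on genes detected on all arrays (-1.09).

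The number of genes called for genotype (57) was 32 with the percentile of detected probes, 29 with quantile normalization, 96 with no detection filter, 20 on genes detected on all arrays, 0 with slide as a block (1197 at an unadjusted p below 0.05 in limma), 132 on the first slide and 0 to 24 without a pair. For CD4SP minus DP (626) it was 959 with normexp, 285 with slide as a block, 2000 on the first slide and 285 to 1176 without a pair. For CD8SP minus DP (702) it was 1552 with normexp and 0 with slide as a block (2704 at an unadjusted p below 0.05 in limma). For TCRβ-negative minus CD4SP (284) it was 577 with normexp, 91 with the percentile of detected probes, 0 with quantile normalization (3658 at an unadjusted p below 0.05 in limma), 439 with no filter, 0 with slide as a block (2681), 1373 on the first slide and 0 to 582 without a pair. For TCRβ-negative minus DP (0) it was 18 with no filter and 1 on genes detected on all arrays, and for genotype by CD8 (0) it was 4 with slide as a block and 0 to 4 without a pair. With the percentile of detected probes the median of all genes moved from 0.00 to -0.21 in TCRβ-negative minus CD4SP and from 0.03 to -0.12 in CD8SP minus DP. The alternatives for differences between single arrays within a genotype were chosen after seeing the data. Of these 200 values, 177 moved by less than the SD of the gene's genotype differences over the 4 pairs, as did 88 of 100 in the genotype pairs. For Ptcra this SD is wide, and the largest move in the pairs, 1.64 in its OT-I difference with normexp, counted as less.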
